A study of Mus musculus with 5 samples.

Results

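The genes described here encode the factors that start and elongate cytosolic protein synthesis. They were taken by symbol as the rows of the count tables that begin with Eif1 to Eif6 or with Eef1 or Eef2, pseudogene symbols left out. The rule found 71 of the 29495 genes in the files, 57 Eif genes and 14 Eef genes, and 68 of them had at least 10 counts in at least 2 libraries and were tested among 16051 genes. The other 3 were at or near 0. Eif4e1b had 1 count over all libraries, Eif1ad3 had 1, and Eif4a3l2, a copy of the helicase gene Eif4a3, had 4 to 10 counts a library.

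Mouse glioma cells of genotype p53-/-;NF1-/-;tdTomato+/- shared a dish with olfactory bulb neurons from C57BL/6 pups aged P2 to P3 and were then sorted on the red tdTomato tag for RNA sequencing. The glioma came from a tumor mouse model on a mixed background that includes CD-1 and C57BL/6. There were 2 libraries of co-cultured glioma cells without added growth factor (controls 1 and 2) and 3 of cells incubated overnight in 20 ng/mL IGF-1, the insulin-like growth factor (called IGF-1 replicates 3, 4 and 5). Both groups carried the same deletions and the same neurons, and the comparison asks which transcripts differ with IGF-1. The titles carry 1 cell code in every library, and no label says whether the libraries came from separate cultures, tumors or days, so the p-values reflect only how these libraries scatter, which may be technical. The plating medium of the neurons held insulin and serum, so the controls had met growth factors too.

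In textbook terms, initiation begins when eIF4F, made of the cap-binding protein eIF4E, the scaffold eIF4G and the helicase eIF4A, loads the small ribosomal subunit onto the capped end of an mRNA with the help of eIF3. The subunit carries the initiator tRNA on eIF2, whose recharging by eIF2B is blocked when any of 4 kinases phosphorylates eIF2, and elongation then runs on eEF1A, which delivers aminoacyl-tRNA, and eEF2, which moves the ribosome. IGF-1 signals through PI3 kinase and mTORC1, which act on this machinery mostly by phosphorylation, for example of the eIF4E-binding proteins and of the kinase that inhibits eEF2. Such changes are not seen in mRNA counts.

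Libraries held 16944315 to 20144181 counts. The translation factors took 2.67% and 2.65% of all counts in controls 1 and 2, 2.64% and 2.66% in IGF-1 replicates 3 and 4, and 2.46% in IGF-1 replicate 5. Replicate 5 therefore had the lowest share, and the other 4 libraries lay close together. The summed level of 6 markers of oligodendrocyte progenitor type glioma (Pdgfra, Olig1, Olig2, Sox10, Cspg4, Ptprz1) was 3569 to 3778 CPM (counts scaled by library size with TMM factors) in the other 4 libraries and 4228 CPM in replicate 5. In replicate 5 Cspg4 was at 758 CPM, against 473 to 571 in the others, and Olig1 at 708 lay within their 678 to 718. Pdgfra, Olig2, Sox10 and, barely, Ptprz1 were also above the other libraries. The summed level of 8 neuron markers was 7.90 and 8.24 CPM in the controls and 8.81, 9.15 and 14.8 CPM with IGF-1. Rbfox3 had 0 to 1 counts in every library. The high sum in replicate 5 lay in Syt1, which had 232 counts there and 81 to 105 in the others. The other 7 neuron markers summed to 2.71 to 3.63 CPM in the other libraries and 3.52 CPM in replicate 5. Markers of microglia summed to at most 0.922 CPM and those of endothelium to at most 1.32 CPM. Astrocyte markers summed to 124 to 142 CPM, with 106 CPM in replicate 5, and most of this was Slc1a3. That gene had 113 to 126 CPM in the other libraries and 97.3 CPM in replicate 5. In such bulk libraries, fewer cells of a type and less RNA per cell cannot be told apart.

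With all 5 libraries and the filter on low counts, no translation factor mRNA passed edgeR's quasi-likelihood test. Without the filter the same test called 1 of 71 higher (Eif1a), beside 385 of 29495 over all genes. A fit with sample quality weights called 2 of 68 higher (Eif1a and Eif3j2), beside 476 of 16051 over all genes. Of the 68 tested, 0 were called higher and 0 lower by the edgeR test at a Benjamini-Hochberg adjusted p under 0.05, where 0.679% and 0.343% of all genes tested were called. At an unadjusted p under 0.05, 4 were higher (Eif1a, Eif3j2, Eif5a2 and Eif4enif1) and 1 lower (Eef1akmt1), against a background of 7.08% and 5.48%. DESeq2 also called 0 and 0, against 1.58% and 0.75% of the genes it gave an adjusted p, with 3 and 1 at an unadjusted p under 0.05. The fitted log2 fold changes had a median of -0.03, beside -0.007 over all genes tested, and 28 were positive and 40 negative, beside 7772 and 8279 over all genes. The majority sign turned without 1 library, since 44 were positive and 23 negative when IGF-1 replicate 5 was left out. They ran from -0.37 for Eef1akmt3, which lay under 1 CPM, to 0.31 for Eif3j2, and 47 of the 68 lay within 0.1 of 0.

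Most of these genes are abundant, and their intervals were narrow. Their median mean level was 109 CPM beside 21.2 CPM over all genes tested, and 37 of 68 reached 100 CPM. The 95% interval of the fold change lay within 1.5-fold in either direction for 63 of the 68. The 5 whose interval reached further than 1.5-fold were Eif4e3, Eif4ebp3, Eef1a2 and Eef1akmt3, all under 10 CPM, and Eif4ebp1. The values of the 3 IGF-1 libraries lay wholly above both controls for 8 genes (11.8%, against 16.3% of all genes tested) and wholly below them for 7 (10.3%, against 16.7%).

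**Figure D1:**
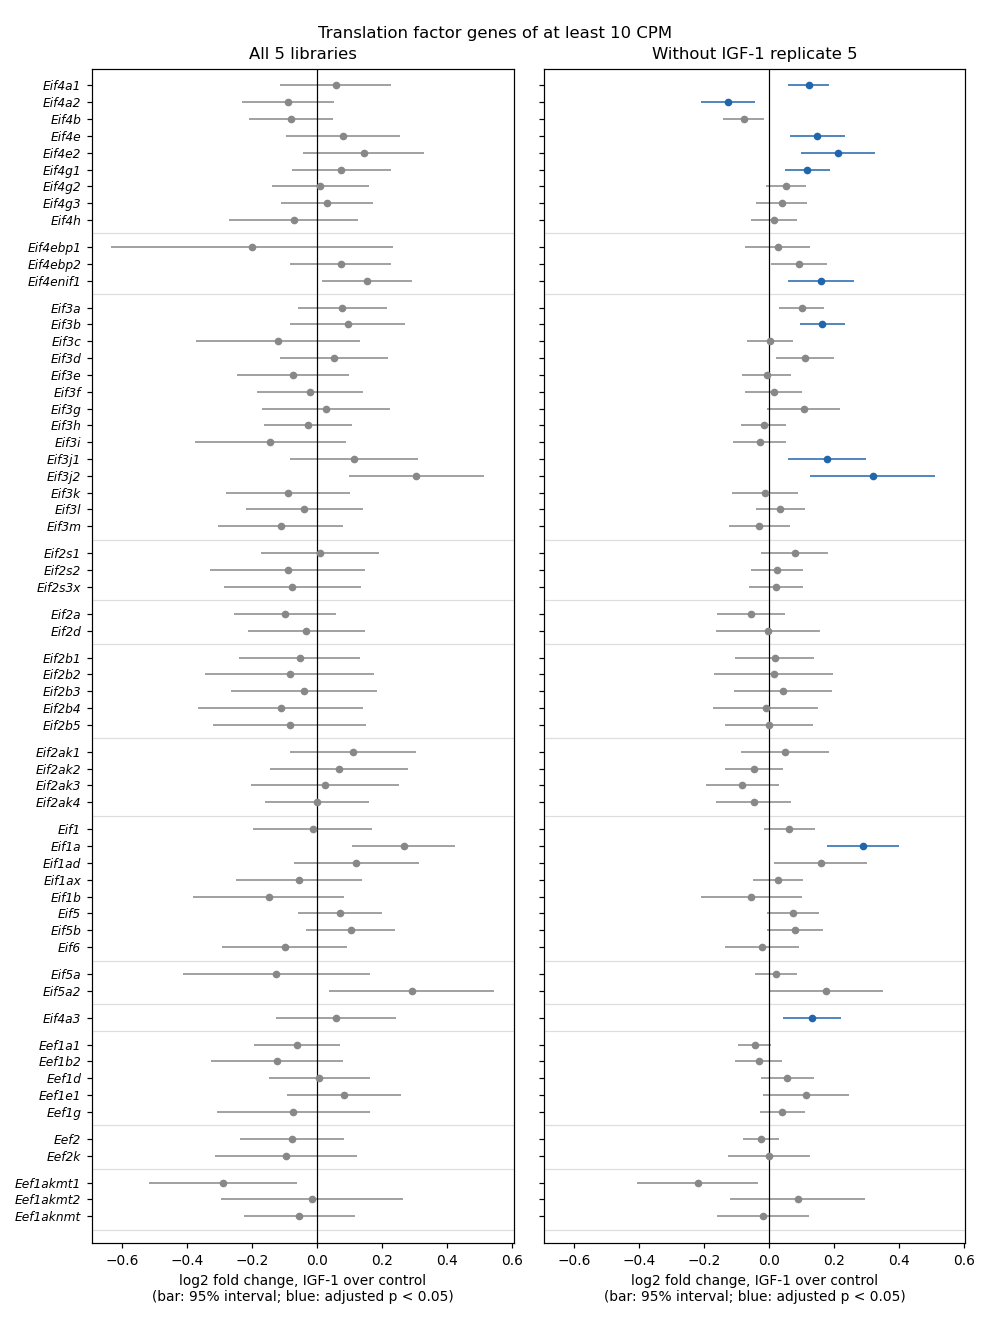
Fitted log2 fold change, IGF-1 over control (x axis, log2), of the 61 translation factor genes with a mean of at least 10 CPM (y axis, grouped by role), with all 5 libraries on the left and without IGF-1 replicate 5 on the right. Points are estimates, bars are 95% intervals, and blue marks an adjusted p under 0.05, which 0 genes have on the left and, on the right, the 10 that rose and Eif4a2, which fell.

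Replicate 5 differed most within the treated group. Over the 61 translation factor genes with a mean of at least 10 CPM, log2 differences had an SD of 0.0805 from control to control and 0.0682 between IGF-1 replicates 3 and 4, but 0.184 and 0.204 between replicate 5 and those. Replicate 5 lay below both other IGF-1 libraries for 52 of the 61 (85.2%) and below every other library for 43 (70.5%). Over all 9777 genes of that level the shares were 45.5% and 34.7%. The median log2 shift of replicate 5 from the mean of the other treated libraries was -0.22 for the translation factors and -0.02 for all genes.

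Without replicate 5, 10 of 67 tested translation factor genes were called higher (14.9%, against 5.43% of all genes) and 1 lower (1.49%, against 3.64%) by the same edgeR test. The translation factors had a median of 109 CPM beside 21.2 CPM over all genes tested, and shares among genes of like level were not counted. The 10 were Eif1a, Eif3b, Eif3j1, Eif3j2, Eif4a1, Eif4a3, Eif4e, Eif4e2, Eif4enif1 and Eif4g1, and their rises were small, 0.12 to 0.32 on the log2 scale or 1.09- to 1.25-fold. The gene that fell was Eif4a2. In the left-out library, 3 of the 10 (Eif1a, Eif3j2 and Eif4enif1) stood above both controls as well. Another 5 (Eif4a1, Eif4e, Eif4e2, Eif3b and Eif4a3) stood below both, so each call in that set rests on replicates 3 and 4.

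**Figure D2:**
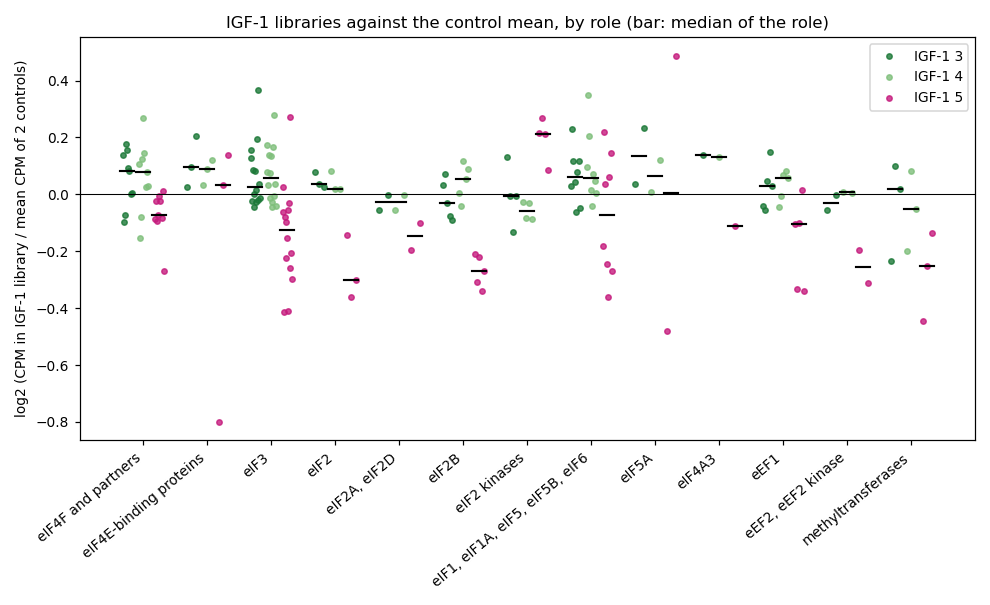
Log2 ratio of each IGF-1 library to the mean CPM of the 2 controls (y axis) for the translation factor genes of at least 10 CPM, by role (x axis); each point is a gene, colours are IGF-1 replicates 3, 4 and 5, and black bars are role medians. Replicate 5 lies lower than replicates 3 and 4 in most roles, with a median of -0.27 for eIF2B, and higher for the eIF2 kinases, with a median of 0.21.

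Several of these genes carry known regulatory letters in their promoters or around their annotated starts. The windows below show them for the cap-binding complex, the eEF2 gene and 3 genes with a pyrimidine run near the annotated start. CACGTG is the E-box bound by MYC and related factors. It occurred (the letters read the same on both strands) in the RefSeq promoter, 250 bases before to 50 after the start, of 14 of the 53 tested members that have such an entry (26.4%). The share was 8.09% of all genes with a promoter entry and 11.4% of the tested genes with one. A run of at least 8 C or T beginning with C was also sought, from 20 bases before to 30 after the start on the sense strand. A terminal oligopyrimidine mRNA begins with such letters. Runs away from the start were counted too, for example at -20 for Eif3m and 17 for Eef1a2, so a match does not mark such an mRNA. A run occurred in 13 of the 53 (24.5%), beside 16.1% of all genes and 17.3% of tested genes. TATAAA was sought on both strands of the same promoters and occurred in 5 of the 53 (9.43%). The share was 15.7% of all genes and 8.93% of tested genes. Capitals mark the E-box or the run in the 30-base windows, for a run at most its first 14 letters. The run of Eif3f goes on past its capitals. It begins at -4 from the annotated start, that of Eif2s3x at -1 and that of Eef1a1 at -5. All 3 thus begin before the annotated start. The windows are written 5′ to 3′ on the strand of the gene in GRCm38.p6. A match describes the letters only.
Eif4e, chr3:138527192-138527221, plus strand: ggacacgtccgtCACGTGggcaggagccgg
Eif4g1, chr16:20672661-20672690, plus strand: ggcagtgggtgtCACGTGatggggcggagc
Eif4a1, chr11:69672595-69672624, minus strand: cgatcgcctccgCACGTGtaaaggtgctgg
Eif4h, chr5:134639488-134639517, minus strand: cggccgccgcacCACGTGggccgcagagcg
Eef2, chr10:81176576-81176605, plus strand: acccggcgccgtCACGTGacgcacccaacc
Eif3f, chr7:108934403-108934432, plus strand: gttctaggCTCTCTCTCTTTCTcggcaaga
Eif2s3x, chrX:94212631-94212660, minus strand: agcattttCCTTTTCTCTCCgagcaagatg
Eef1a1, chr9:78481708-78481737, minus strand: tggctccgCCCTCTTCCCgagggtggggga

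The E-box shown starts 64 bases before the Eif4e start, 54 before that of Eif4g1 and 189 before that of Eif4a1. For Eif4h it starts 96 bases before and for Eef2 43 before. Eif4e has another 228 bases before the same start, and Eif4g1 has another 15 bases after its start. A further promoter entry of Eif4e holds none. The fold changes of members with CACGTG lay close to those of members without it. Members with and without a pyrimidine run were not compared. The median log2 fold change was -0.06 for the 14 members with CACGTG and -0.01 for the 39 without it, and without IGF-1 replicate 5 the medians were 0.02 and 0.04. Of the 10 genes called higher without replicate 5, 8 had a promoter entry and 3 of these held CACGTG (Eif4e, Eif4a1 and Eif4g1).

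Among the genes of eIF4F and its helicase partners, 10 were tested and 0 were called in either direction with all libraries, with a median log2 fold change of 0.04. Eif4e, the cap-binding subunit, stood at 198 and 200.1 CPM in controls 1 and 2 and at 225, 217 and 189 CPM in IGF-1 replicates 3, 4 and 5. Replicates 3 and 4 were above both controls and replicate 5 below them, and the log2 fold change was 0.08 with an SE of 0.08 (edgeR adjusted p = 0.716). Without replicate 5 Eif4e rose by 0.15 on the log2 scale (edgeR adjusted p = 0.0113). Eif4e2, a cap-binding relative that represses rather than starts translation, had 75.4 and 75.6 CPM in the controls and 84.1, 90.9 and 75.2 CPM with IGF-1, again with replicates 3 and 4 above both controls and replicate 5 below. Its rise without replicate 5 was 0.21 (edgeR adjusted p = 0.00708). Eif4e3, the least abundant cap-binding gene tested, had 5.59 to 6.57 CPM in controls and 6.66 to 7.82 CPM with IGF-1, groups that did not overlap (log2 fold change 0.23, 95% interval -0.13 to 0.59).

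The pair of helicase genes of eIF4F differed in their values. Eif4a1, which encodes the main RNA helicase of initiation, had 989 and 1012 CPM in the controls and 1101, 1078 and 941 CPM with IGF-1. Its paralog Eif4a2 had 228 and 231 CPM in the controls and 215, 206 and 225 CPM with IGF-1. All 3 treated libraries were thus below both controls for Eif4a2, while for Eif4a1 the groups overlapped. The log2 fold changes were 0.06 for Eif4a1 and -0.09 for Eif4a2 (edgeR adjusted p = 0.8 and 0.601). Without replicate 5, Eif4a1 rose by 0.12 (edgeR adjusted p = 0.00562) and Eif4a2 fell by 0.13 (edgeR adjusted p = 0.0388). Eif4a2 CPM was 23.0% and 22.8% of Eif4a1 CPM in the controls, 19.5% and 19.1% in IGF-1 replicates 3 and 4, and 24.0% in replicate 5. Of the 50-base stretches of the Eif4a1 transcript, 65.3% also occur in another gene, chiefly the pseudogene Eif4a-ps4. That gene itself held 269 to 387 counts, so reads of Eif4a1 may be split in ways the counting rules, which are not given, would decide.

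The scaffold genes had small fold changes. Eif4g1, the scaffold of the canonical complex, had 588 and 567 CPM in the controls and 616, 639 and 569 CPM with IGF-1, and its rise without replicate 5 was 0.12 (edgeR adjusted p = 0.0153). Eif4g3, a second scaffold, had 317 and 296 CPM and then 306, 324 and 309 CPM, a range that crossed the controls. Eif4g2, a relative that lacks the eIF4E-binding region and serves non-canonical initiation, had 1197 and 1183 CPM and then 1259, 1212 and 1123 CPM. Their log2 fold changes with all libraries were 0.07, 0.03 and 0.01.

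Of the helicase cofactors, Eif4b, which stimulates eIF4A, had 1064 and 1044 CPM in the controls and 1003, 997 and 988 CPM with IGF-1. Every treated library was below both controls by a small amount, and the log2 fold change was -0.08 (edgeR adjusted p = 0.607). It was -0.08 also without replicate 5 (edgeR adjusted p = 0.123). Eif4h, a related cofactor, had 489 and 465 CPM in the controls and 479, 486 and 396 CPM with IGF-1, so the groups overlapped.

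Among the eIF4E-binding proteins, which mTORC1 releases from eIF4E by phosphorylation, Eif4ebp1 showed the largest shift in replicate 5 among the genes of at least 10 CPM. It had 116 and 109.9 CPM in the controls, 115 and 115 CPM in IGF-1 replicates 3 and 4, and 64.9 CPM in replicate 5. That last library lay 0.83 below the others of its group on the log2 scale, and the remaining 4 lay between 109.9 and 116 CPM. The log2 fold change was therefore -0.20 with an interval from -0.63 to 0.23, and 0.03 without replicate 5. Eif4ebp2 had 229 and 202 CPM in the controls and 230.1, 229 and 219.8 CPM with IGF-1, values that overlapped. Eif4ebp1 CPM was 50.7% and 54.5% of Eif4ebp2 CPM in the controls, 50.0% and 50.4% in replicates 3 and 4, and 29.5% in replicate 5. Eif4ebp3 was near the limit of detection at 0.765 to 1.44 CPM. Eif4enif1, the transporter that binds eIF4E and carries it into the nucleus, had 106 and 103 CPM in the controls and 120.3, 113 and 115 CPM with IGF-1. All treated libraries, replicate 5 included, were above both controls, with a log2 fold change of 0.15 and an interval from 0.02 to 0.29 (edgeR adjusted p = 0.348). Without replicate 5 the rise was 0.16 (edgeR adjusted p = 0.0297).

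**Figure D3:**
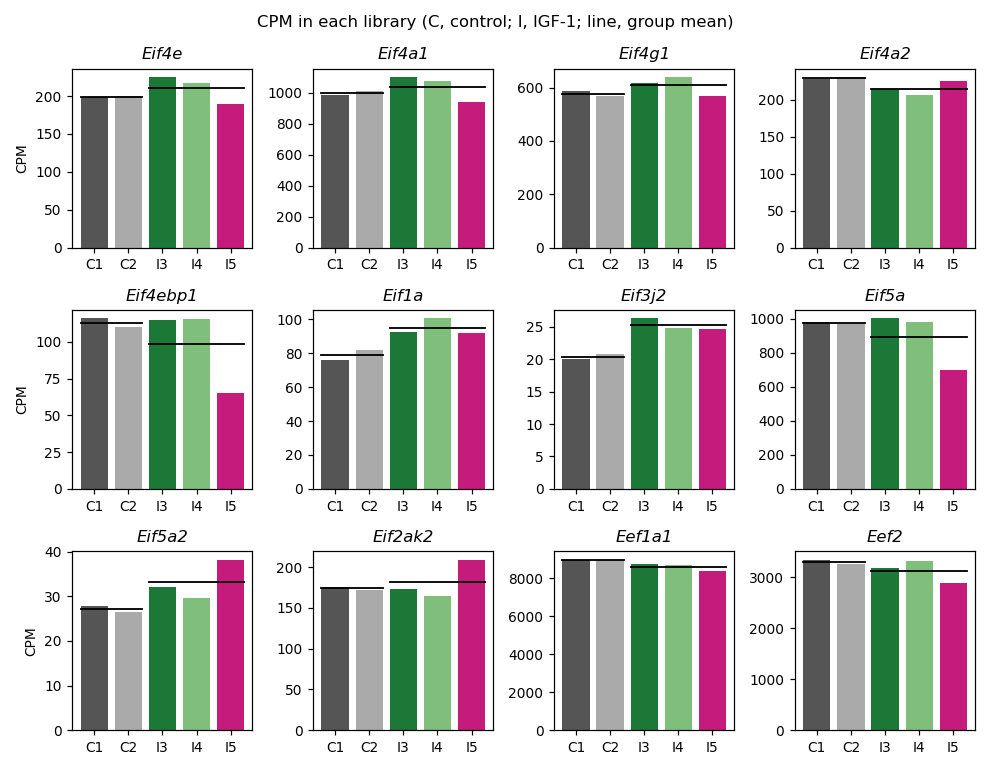
CPM of 12 translation factor genes in each library (bars from 0, linear y axis in CPM; C1 and C2 are the controls, I3 to I5 the IGF-1 replicates), 1 panel per gene, with black lines at the group means. Eif1a has all 3 IGF-1 libraries above both controls, Eif4a2 has them below, and Eif4ebp1 is low in IGF-1 replicate 5 at 64.9 CPM.

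The 14 genes of eIF3, the scaffold that holds the small ribosomal subunit, were all tested, with 0 called and a median log2 fold change of -0.02. Their median relative to the controls was 0.03, 0.06 and -0.12 in IGF-1 replicates 3, 4 and 5. Eif3b, a core subunit, had 463 and 449 CPM in the controls and 508, 515 and 436 CPM with IGF-1, and rose by 0.16 without replicate 5 (edgeR adjusted p = 0.000463). Eif3a, the largest subunit, had 504 and 503 CPM in the controls and 549.8, 532 and 512 CPM with IGF-1. Its groups did not overlap, at a log2 fold change of 0.08 (edgeR adjusted p = 0.649). Eif3c, which lies in the same core, had 458 and 438 CPM and then 441, 458 and 337 CPM, and Eif3i had 231 and 233 CPM and then 228, 227 and 175 CPM. For both, replicate 5 was the lowest library, and replicates 3 and 4 lay close to the controls. The other core subunits, Eif3d to Eif3h and Eif3k to Eif3m, had log2 fold changes from -0.11 (Eif3m) to 0.05 (Eif3d).

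The eIF3j subunit, which is loosely bound and aids recycling, is encoded by 2 near-identical genes. Eif3j2 had 20.1 and 20.8 CPM in the controls and 26.3, 24.8 and 24.7 CPM with IGF-1. The treated libraries were all above the controls, replicate 5 included, and this was the largest positive log2 fold change of the 68, 0.31 with an interval from 0.10 to 0.51 (edgeR adjusted p = 0.201). Eif3j1 had 63.3 and 72 CPM in the controls and 77.3, 75.9 and 66.2 CPM with IGF-1, with replicate 5 between the controls. Of the 50-base stretches of the Eif3j2 transcript, 90.8% occur in Eif3j1 too, so the division of reads between them is uncertain. Without replicate 5 both rose, by 0.32 and 0.18 (edgeR adjusted p = 0.0207 and 0.0467).

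The values of the ternary complex genes overlapped between the groups. Eif2s1, the alpha subunit that the stress kinases phosphorylate, had 96.1 and 103 CPM in the controls and 105, 105 and 90.4 CPM with IGF-1. Eif2s2, the beta subunit, had 244 and 256 CPM and then 257, 254 and 195 CPM. Eif2s3x, the X-linked gene of the gamma subunit, had 222 and 227 CPM and then 229, 227 and 182 CPM. In each, replicates 3 and 4 lay close to the higher control and replicate 5 was the lowest library. The Y-linked copy Eif2s3y had 7.21 and 8.89 CPM in the controls and 7.43, 8.36 and 10 CPM with IGF-1. It was present in every library, and its log2 fold change of 0.10 had an interval from -0.28 to 0.48. Eif2a and Eif2d, which can deliver initiator tRNA by other routes, had log2 fold changes of -0.10 and -0.03.

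All 5 subunit genes of eIF2B, the exchange factor that recharges eIF2, had negative log2 fold changes, from -0.11 (Eif2b4) to -0.04 (Eif2b3), and 0 passed the test. Their median relative to the controls was -0.03 and 0.05 in replicates 3 and 4 and -0.27 in replicate 5. Eif2b5, the catalytic subunit, had 61.1 and 53.8 CPM in the controls and 53.9, 61.1 and 47.7 CPM with IGF-1. Without replicate 5, 4 of the 5 log2 fold changes were at or above 0 and Eif2b4 was at -0.01, so the common sign was not seen without that library.

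The 4 kinases of eIF2 alpha were at their highest in replicate 5. Eif2ak2, the double-stranded RNA sensor PKR, had 175 and 172 CPM in the controls and 173, 164 and 209 CPM with IGF-1. Eif2ak3, the endoplasmic reticulum kinase PERK, had 95.6 and 83.2 CPM and then 81.6, 87.5 and 103 CPM. Eif2ak1, the heme-regulated kinase HRI, had 57.2 and 52.5 CPM and then 60.1, 53.8 and 63.7 CPM. Eif2ak4, the amino acid sensor GCN2, had 78 and 75.4 CPM and then 76.5, 72.2 and 81.4 CPM. For each kinase replicate 5 was the highest of the 5 libraries, and apart from Eif2ak1 in replicate 3 the other IGF-1 libraries did not exceed the higher control. The log2 fold changes were 0.07, 0.02, 0.11 and -5.63e-05, and 0 passed the test. Among the members of at least 10 CPM, Eif5a2 and Eif5b were also highest in replicate 5. How many of all genes were highest in that library was not counted, so whether the kinases stand out from other genes cannot be said.

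The shift of replicate 5 was also set against transcript length. Across the 61 genes, its shift from replicates 3 and 4 had a Spearman correlation of 0.49 with principal transcript length, beside 0.38 across 9746 genes of at least 10 CPM. Points in such a correlation share the same libraries and are not replicates. The median shift was -0.25 in the shortest of 3 equal length classes of the translation factors and -0.05 in the longest. Over all genes, classed in the same way, it was -0.12 and 0.05. The 4 kinase transcripts are 4313 to 5212 bases long, and that of Eif5a2 is 5027 bases. Among other transcripts of at least 4313 bases, Eif5b (7797 bases, shift 0.07) was higher in replicate 5. Eif1ax (5172 bases, -0.27), Eif4e (4991 bases, -0.23) and Eef2k (6580 bases, -0.31) were lower. Of the 16 genes with transcripts of at least 4313 bases, 10 were lower in replicate 5 and 6 higher. The part of length, or of the Syt1 and glioma marker levels given above, in the shift was not tested.

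**Figure D4:**
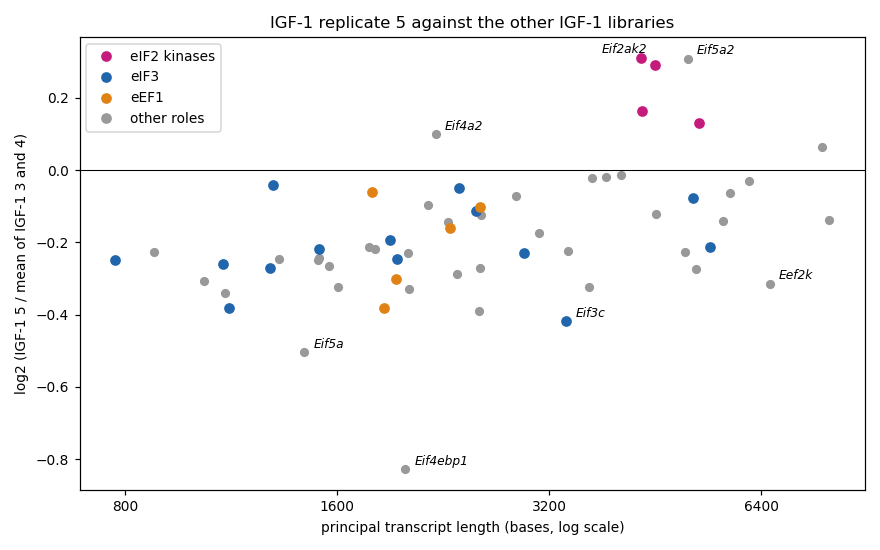
Log2 shift of IGF-1 replicate 5 from the mean of IGF-1 replicates 3 and 4 (y axis) against principal transcript length in bases (x axis, log scale) for the translation factor genes of at least 10 CPM, coloured by role. Most points lie below 0, the 4 kinases of eIF2 lie above it among the long transcripts, and Eif4ebp1 is lowest at -0.83.

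Start site selection and subunit joining held the gene with the smallest adjusted p of all members. Eif1a, which encodes a form of eIF1A, the factor that helps the small subunit scan for the start codon, had 76.1 and 81.7 CPM in the controls and 92.5, 100.5 and 91.8 CPM with IGF-1. The groups did not overlap. The mean was 78.9 ± 3.98 CPM (SD, n = 2) in controls and 94.9 ± 4.82 CPM (SD, n = 3) with IGF-1, which makes a log2 fold change of 0.27 (SE 0.07, 95% interval 0.11 to 0.43). It missed the threshold with all 5 libraries (edgeR adjusted p = 0.139) and rose by 0.29 without replicate 5 (edgeR adjusted p = 7.66e-05). Its X-linked paralog Eif1ax had 304 and 323 CPM in the controls and 323, 317 and 265 CPM with IGF-1, an overlap. Eif1a CPM was 25.0% and 25.3% of Eif1ax CPM in controls 1 and 2, then 28.6%, 31.7% and 34.7% in replicates 3, 4 and 5.

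The other genes of this role had smaller fold changes. Eif5, which triggers GTP hydrolysis by eIF2, had 235 and 238 CPM in the controls and 249.7, 248 and 246 CPM with IGF-1. Eif5b, the GTPase that joins the large subunit, had 179 and 178 CPM and then 193, 184 and 197 CPM. For both the groups did not overlap, replicate 5 included, at log2 fold changes of 0.07 and 0.10 (edgeR adjusted p = 0.659 and 0.528). Eif1, which guards start codon choice, had 260.4 and 265 CPM and then 269, 281 and 232 CPM, and Eif6, which keeps the large subunit free, had 80.3 and 77 CPM and then 76, 78.9 and 65.2 CPM. In both, replicate 5 was the lowest library.

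The eIF5A genes encode the hypusine-bearing factor that relieves stalled elongation. Eif5a had 984 and 971 CPM in the controls, 1004 and 984 CPM in replicates 3 and 4, and 701 CPM in replicate 5, which was the lowest library. Eif5a2, the scarcer paralog, had 27.9 and 26.6 CPM in the controls and 32, 29.6 and 38.2 CPM with IGF-1, so every treated library exceeded both controls. Its log2 fold change was 0.29 with an interval from 0.04 to 0.55 (edgeR adjusted p = 0.334), and 0.18 without replicate 5 (edgeR adjusted p = 0.232). Eif5a2 CPM was 2.83% and 2.73% of Eif5a CPM in the controls, 3.19% and 3.01% in replicates 3 and 4, and 5.45% in replicate 5. Eif4a3, a helicase of the exon junction complex that resembles eIF4A, had 155 and 146 CPM and then 165, 164 and 139 CPM, with a rise of 0.13 without replicate 5 (edgeR adjusted p = 0.0494).

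Eef1a1 and Eef2 were the most abundant members. Eef1a1, which encodes the carrier of aminoacyl-tRNA, had 8976 and 8984 CPM in the controls and 8739.9, 8702 and 8361 CPM with IGF-1. All treated libraries were below both controls, at a log2 fold change of -0.06 with an interval from -0.19 to 0.07 (edgeR adjusted p = 0.703). Eef1a1 alone made up 0.850% to 0.900% of all counts, and 59.2% of its 50-base stretches occur in other genes. Eef1a2, the form of neurons and muscle, had 0.37 to 1.1 CPM in the 5 libraries. Of the exchange factor genes, Eef1b2 had 400.3 and 407 CPM in the controls and 388, 402 and 320.4 CPM with IGF-1. Eef1g had 547 and 528 CPM and then 548, 559 and 425 CPM, and Eef1d had 229 and 219 CPM and then 232, 235 and 209 CPM. Of the Eef1g stretches, 64.3% occur in other genes too. In these 3, replicate 5 was the lowest library and the others overlapped.

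Eef2, the translocase, had 3351 and 3258 CPM in the controls and 3181, 3324 and 2886 CPM with IGF-1, with a log2 fold change of -0.08. Its inhibitory kinase Eef2k had 61 and 60.7 CPM in the controls and 60.7, 61.1 and 49 CPM with IGF-1, a spread of under 1 CPM over 4 libraries and a lower value in replicate 5. The 6 methyltransferase genes that modify elongation factors all had negative log2 fold changes with all libraries, and 3 of the 5 still tested without replicate 5 were positive. Eef1akmt1, a lysine methyltransferase of eEF1A, had 26.3 and 26.4 CPM in the controls and 22.4, 23 and 19.4 CPM with IGF-1, groups that did not overlap. Its log2 fold change of -0.29 (interval -0.52 to -0.06) was the largest negative one among genes of at least 10 CPM and missed the threshold (edgeR adjusted p = 0.274), also without replicate 5 (-0.22, edgeR adjusted p = 0.146).

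Per kilobase of principal transcript, control levels spanned from Eef1a1 at 5006 ± 3.3 CPM per kb (SD, n = 2) to Eef1akmt3 at 0.214 ± 0.0271. Eef2 followed at 1070 ± 21.4, Eif5a at 680 ± 6.53, Eif4a1 at 564 ± 9.34 and Eif3h at 399 ± 11. The ranges of these leading 5 did not overlap. On this scale Eif4e (39.9 ± 0.282) lay well below Eif4a1 and Eif4g1 (102 ± 2.58), and close to Eif4e2 (41.8 ± 0.0990). Of the binding proteins, Eif4ebp1 (56.6 ± 2.13) exceeded Eif4e, and Eif4ebp2 (37.2 ± 3.28) lay close to it. Subunits of 1 complex were not at 1 level. The core eIF3 genes lay between 69.6 (Eif3g) and 399 (Eif3h) CPM per kb, whereas Eif3j1 and Eif3j2 lay at 12.5 and 8.59, and eIF2B subunits lay between 16.0 and 32.8. Eef1a2 stood at 0.337 CPM per kb, 0.00673% of Eef1a1.

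**Figure D5:**
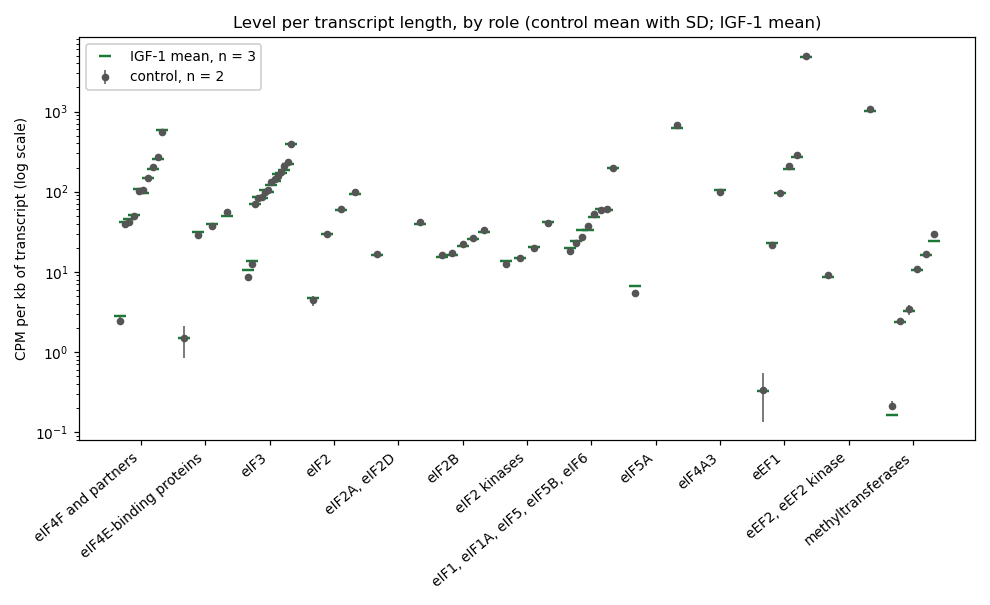
Level of each tested translation factor gene in CPM per kilobase of principal transcript (y axis, log scale), by role (x axis). Grey points are control means with SD (n = 2) and green dashes are IGF-1 means (n = 3); levels run from Eef1a1 at 5006 CPM per kb in controls down to Eef1akmt3 at 0.214.

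Other genes of translation, from a list of 68 in the files, were counted in the same way. The list did not use how its genes changed, but it was made with earlier results of these data known. With all libraries 0 were called higher and 0 lower by edgeR, with 7 and 4 at an unadjusted p under 0.05 (10.3% and 5.88%, against 7.08% and 5.48% of all genes). DESeq2 also called 0 and 0, and the median log2 fold change was -0.01. Without replicate 5, 12 of 68 rose (17.6%, against 5.43% of all genes) and 1 fell (1.47%, against 3.64%). Here too, shares among genes of like level were not counted. Atf4, the transcription factor translated when eIF2 is phosphorylated, had 262 and 274 CPM in the controls and 329, 336 and 243 CPM with IGF-1. Replicates 3 and 4 were above both controls and replicate 5 below them, and Atf4 rose by 0.31 without it (edgeR adjusted p = 1.4e-09). Larp1, which binds the capped ends of terminal oligopyrimidine mRNAs, had 277 and 257 CPM and then 308, 310.1 and 291 CPM. Larp4, a poly(A)-associated RNA-binding protein, had 221 and 213 CPM and then 259, 248 and 259 CPM. In both all treated libraries exceeded both controls, at log2 fold changes of 0.18 and 0.24 (edgeR adjusted p = 0.277 and 0.125), and without replicate 5 they rose by 0.21 and 0.22 (edgeR adjusted p = 5.38e-05 and 3.13e-05).

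Dhx29, a helicase for structured leaders, had 51.9 and 50.4 CPM in the controls and 65.2, 63.5 and 57.3 CPM with IGF-1, again without overlap (log2 fold change 0.28, edgeR adjusted p = 0.167). It rose by 0.33 without replicate 5 (edgeR adjusted p = 0.000136). Dph2, of the pathway that makes diphthamide on eEF2, had 30.8 and 27.7 CPM and then 36.1, 36.6 and 38.8 CPM, with the smallest adjusted p of the list (0.34, edgeR adjusted p = 0.121), and rose by 0.31 without replicate 5 (edgeR adjusted p = 0.00823). Paip2, an inhibitor of the poly(A)-binding protein, had 135 and 139 CPM and then 117, 122 and 112 CPM, and was the gene that fell without replicate 5, by 0.20 (edgeR adjusted p = 0.00182). The remaining rises without replicate 5 were those of Abce1 (0.18) and Etf1 (0.22), which act in termination and recycling, Zfp598 and Gtpbp1, which act on stalled ribosomes, Mcts2, a copy of the reinitiation factor gene Mcts1, and the eIF2 phosphatase subunits Ppp1r15a and Ppp1r15b. Pabpc1, the main poly(A)-binding protein, had 1588 and 1502 CPM in the controls and 1556, 1565 and 1427 CPM with IGF-1. Of 12 mitochondrial translation factors, 10 had negative log2 fold changes, with a median of -0.07 and 0 called. Without replicate 5, 6 of the 12 were negative, with a median of -0.04.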

How the data were processed

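Polyadenylated RNA of sorted glioma cells was sequenced in 5 libraries, 2 controls and 3 with IGF-1. The authors deposited 1 table per library of unnormalized read counts for each gene symbol. The submitters' processing notes name featureCounts 2.0.1, STAR 2.7.9a, DESeq2 1.28.1 and cutadapt 3.4, and the build GRCm39. Their roles and settings, the annotation, and the treatment of strand and multiply mapped reads are not given in the sources used here, so reads of near-identical genes can be shared.

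Groups came from titles and treatment labels. The members and gene lists were chosen with earlier results of these data known, including that IGF-1 replicate 5 stands apart. Genes with at least 10 counts in at least 2 libraries were fitted together with edgeR 4.0.16 (R 4.3.3) using TMM factors and the two-sided quasi-likelihood F test, with p-values adjusted over all genes tested (Benjamini-Hochberg, threshold 0.05). CPM use the TMM factors. The biological coefficient of variation was 0.0774, and 0.0324 without IGF-1 replicate 5. Named by rule were members past the threshold, in each role the 2 most abundant members and the largest change among those of at least 5 CPM, a fixed set of subunits, kinases and paralogs, and the 2 most abundant genes per list of other translation genes. Every other gene named was chosen after its values were seen. Alternatives were RLE factors, no factors, no filter, filterByExpr, DESeq2 1.42.0, limma 3.58.1 voom with and without quality weights, each library left out, and, added after seeing the data, an offset for transcript length. Lengths are those of GENCODE principal transcripts (GRCm38) and promoters are from RefSeq (GRCm38.p6), both matched by symbol. They are of another build than the counts. The fits were tested on simulated data with planted 1.5-fold and 2-fold changes and no outlying library. That test does not cover smaller changes or a library like IGF-1 replicate 5.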

Additional observations from a re-analysis of the deposited data

How the results depend on the processing

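With all libraries, 0 translation factor genes were called in either direction under RLE factors, total counts, filterByExpr, DESeq2, limma-voom and the length offset. Without a filter on low counts 1 of 71 was called higher (Eif1a), and with sample quality weights 2 of 68 were (Eif1a and Eif3j2). Over the fits that left out 1 library, 0 to 10 were called higher and 0 to 1 lower, and the upper values were those without IGF-1 replicate 5. The members' median log2 fold change ran from -0.059 to 0.028. Over all genes, calls moved to 385 higher and 221 lower of 29495 without a filter, and to 190 and 90 with DESeq2. The calls were 476 and 326 of 16051 with quality weights, and 88 lower with the length offset. They ran from 0 to 853 higher and 0 to 572 lower with 1 library left out. Of the 68 other translation genes, 2 were called higher without a filter, and 7 higher and 1 lower with quality weights. The range was 0 to 12 higher and 0 to 1 lower with 1 library left out. Where 1 control was left out, the lone control is assumed to vary like the treated group. No paired analysis was possible because the replicate numbers 1 to 5 are not shared between the groups.

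Some small log2 fold changes changed sign, and the cause was not tested. With quality weights these were Eef1akmt2 (0.055), Eef1akmt4 (0.0102), Eef1g (0.00499), Eef2kmt (0.013), Eif1 (0.039), Eif1ax (0.0037), Eif2ak2 (-0.014), Eif2ak3 (-0.048), Eif2b3 (0.015), Eif3f (0.0045), Eif3l (0.013), Eif4ebp3 (0.058), Gfm1 (0.051) and Pabpc1 (0.0019). With the length offset they were Eef1akmt2 (0.024), Eif1 (0.017), Eif2ak3 (-0.011), Eif2s1 (-0.0069), Eif3h (0.0048), Eif4ebp3 (0.046), Eif4g2 (-0.027), Eif4g3 (-0.0069) and Rps6ka3 (-0.011). Eif2ak4 was 0.0021 with RLE factors, 0.0041 without a filter and 0.0021 with DESeq2, and Eif4ebp3 was 0.047 with limma-voom. With 1 library left out, the genes that changed sign ranged as follows: Dph6 (-0.17 to 0.016), Eef1a2 (-0.61 to 0.71), Eef1akmt2 (-0.076 to 0.088), Eef1akmt4 (-0.23 to 0.069), Eef1d (-0.027 to 0.057), Eef1g (-0.14 to 0.041), Eef2kmt (-0.19 to 0.053), Eif1 (-0.072 to 0.063), Eif1ax (-0.11 to 0.028), Eif2ak2 (-0.046 to 0.14), Eif2ak3 (-0.081 to 0.13), Eif2ak4 (-0.047 to 0.041), Eif2b1 (-0.099 to 0.018), Eif2b2 (-0.17 to 0.014), Eif2b3 (-0.12 to 0.043), Eif2b5 (-0.18 to 0.0084), Eif2s1 (-0.044 to 0.079), Eif2s2 (-0.16 to 0.026), Eif2s3x (-0.13 to 0.021), Eif2s3y (-0.047 to 0.26), Eif3c (-0.20 to 0.0034), Eif3f (-0.088 to 0.048), Eif3g (-0.032 to 0.11), Eif3l (-0.081 to 0.035), Eif4ebp1 (-0.33 to 0.026), Eif4ebp2 (-0.014 to 0.16), Eif4ebp3 (-0.39 to 0.51), Eif4g2 (-0.028 to 0.052), Eif4g3 (-0.017 to 0.078), Eif4h (-0.13 to 0.016), Eif5a (-0.21 to 0.022), Gfm1 (-0.093 to 0.082), Pabpc1 (-0.067 to 0.012), Ppp1cb (-0.066 to 0.013), Rps6ka3 (-0.00094 to 0.044) and Sbds (-0.048 to 0.0904). Of the 92 genes named, 25 changed sign without IGF-1 replicate 5, and 7 to 10 did without each other library. Counts limited the genes under 10 CPM, such as Eef1a2, Eif4ebp3 and Eef1akmt3, whose intervals are wide.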
